A study of Mus musculus with 9 samples.

Results

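Genes of the fetal and wall-stress programme of the heart were followed across all 9 left ventricular RNA sequencing libraries of this series. They are *Nppa*, *Nppb*, *Myh6*, *Myh7*, *Acta1*, *Ankrd1*, *Xirp2*, *Myl4* and *Myl7*, 9 of the 52636 genes in the count table, and all 9 were detected well enough to be tested. The members were chosen by name, with earlier results of these data known, and the libraries are shown by their level of *Vdac2*, which was measured in the same libraries.

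The mice were of the C57BL6J strain and 16 weeks old, and transmural left ventricle was taken. The KO is *Vdac2* flox/flox with Cre driven by the αMHC promoter, so that deletion starts during development in ventricular myocytes. The WT are littermates with either the floxed allele or Cre alone, and the labels do not say which of them a library came from. VDAC2 is a channel of the outer mitochondrial membrane, and the comparison asks what its loss does to the ventricular transcriptome. αMHC is the protein of *Myh6*, so the promoter that drives Cre is that of a gene described here.

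An overloaded or failing ventricle of the mouse is known to return in part to genes of the fetal heart. The natriuretic peptides are secreted by stretched myocytes, the slow β-myosin heavy chain and skeletal α-actin appear beside or in place of their adult partners, and stretch-responsive proteins of the sarcomere accumulate. Genes of this kind are read as markers of wall stress, and the atrial light chains are part of the same fetal pattern in the ventricle.

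Of the 9 libraries, 5 are labelled WT (libraries 1 to 5) and 4 are labelled KO (libraries 6 to 9), with 27345052 to 44673988 counts each. The labels do not say whether the libraries came from separate animals, so p-values measure the spread between these libraries. *Vdac2* went against the labels. It was at 19.1 to 21.3 CPM (counts scaled to the size of the library) in libraries 1, 5, 7 and 9 and at 365 to 421 CPM in libraries 2, 4, 6 and 8, so that each set holds 2 libraries labelled WT and 2 labelled KO. Library 3, labelled WT, was at 58.5 CPM, also under the bound of 100 CPM used to show the libraries, and is left out of both sets and shown apart. Within the sets, the libraries nearest to the bounds of 100 and 300 CPM were library 5 at 21.3 CPM and library 4 at 365 CPM. The genotype words WT and KO therefore stand for the deposited label alone. Tests are between the labels only, and the sets with low and high *Vdac2* are described without a test. The labels coincide with the sequencing lane. They also coincide with the sex genes: in libraries 1 to 5 *Xist* was at 0.0366 to 0.152 CPM and the Y-linked *Uty* at 48.1 to 82.9 CPM, and in libraries 6 to 9 *Xist* was at 335 to 587 CPM and *Uty* was not counted. Label, lane and sex cannot be told apart in these libraries.

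The start sites of *Nppa*, *Nppb*, *Ankrd1* and *Acta1* are shown first, as the sequences at which their transcription begins. Whether these sequences bear on the levels was not tested. The windows run from 250 bases before to 50 bases after the RefSeq start site on GRCm38.p6, read 5′ to 3′ on the strand of the gene. Capitals mark matches, on both strands, to the element bound by TEAD factors (MCAT) or to the CArG box of SRF. They also mark the spelling AGATAA of the site of the zinc-finger factors GATA4 and GATA6.
Nppa (chr4:148000472-148000771, plus strand): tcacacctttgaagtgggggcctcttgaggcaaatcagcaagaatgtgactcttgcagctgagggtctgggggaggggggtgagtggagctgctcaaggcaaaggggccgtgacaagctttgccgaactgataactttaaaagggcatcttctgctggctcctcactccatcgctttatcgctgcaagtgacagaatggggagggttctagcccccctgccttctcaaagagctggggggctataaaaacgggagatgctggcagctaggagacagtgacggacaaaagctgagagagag
Nppb (chr4:147985650-147985949, plus strand): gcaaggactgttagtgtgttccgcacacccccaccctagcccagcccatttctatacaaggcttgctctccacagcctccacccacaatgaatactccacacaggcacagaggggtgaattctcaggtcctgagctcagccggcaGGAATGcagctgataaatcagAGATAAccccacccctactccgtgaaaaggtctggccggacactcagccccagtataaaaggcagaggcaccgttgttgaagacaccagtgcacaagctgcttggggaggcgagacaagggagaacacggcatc
Ankrd1 (chr19:36119795-36120094, minus strand): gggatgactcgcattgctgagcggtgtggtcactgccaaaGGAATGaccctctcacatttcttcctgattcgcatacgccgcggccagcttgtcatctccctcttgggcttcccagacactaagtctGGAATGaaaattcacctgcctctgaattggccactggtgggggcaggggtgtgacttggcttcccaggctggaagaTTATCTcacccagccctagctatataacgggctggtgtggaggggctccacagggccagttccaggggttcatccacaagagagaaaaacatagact
Acta1 (chr8:123894726-123895025, minus strand): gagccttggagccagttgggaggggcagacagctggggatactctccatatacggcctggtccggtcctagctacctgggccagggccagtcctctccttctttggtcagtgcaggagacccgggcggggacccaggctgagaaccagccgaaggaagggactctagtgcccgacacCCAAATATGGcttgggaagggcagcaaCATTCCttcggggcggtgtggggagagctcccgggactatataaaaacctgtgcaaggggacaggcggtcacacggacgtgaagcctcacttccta

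All 9 members were found in the promoter table. The MCAT element, searched as CATTCC, was present in the windows of 6 members (*Nppb*, *Myh6*, *Myh7*, *Acta1*, *Ankrd1* and *Myl7*; for *Myh7* in 1 of its 2 windows) and in 14.7% of all 32851 promoter windows of this length. *Ankrd1* held it at 2 places, both before the start site. The site of the zinc-finger factors, searched as AGATAA alone, was found in *Nppb* and *Ankrd1*, against 11.2% of all windows. Other spellings of this site were not searched. The CArG box was found in *Acta1* and *Myl7*, against 1.63% of all windows, and in *Myl7* it began 9 bases after the start of the TEAD match. A MEF2 site, named here without its letters, was present in *Xirp2* alone of the 9, against 3.19% of all windows. The core of an NKX2-5 site, searched as AAGTG, was present in 7 members and 46.4% of all windows. No capitals stand in the *Nppa* window shown, which says only that the 3 capitalised motifs are not spelled as searched in this stretch. TGATAA, which differs from the searched AGATAA in its first base, does stand there. The NKX2-5 core was also present in the *Nppa* window. A match is a description of the sequence and was not tested as a binding site.

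Of the natriuretic peptides, *Nppa* had the widest range of the 9 members. *Nppa* (ENSMUSG00000041616, chr4:148000722-148002079 on GRCm38) encodes atrial natriuretic peptide, which acts on kidney and vessels to lower blood pressure. Libraries 1 to 5 (labelled WT) gave 951, 73.8, 3347, 80.4 and 157 CPM, in that order, and libraries 6 to 9 (labelled KO) gave 104, 401, 72.8 and 1523 CPM. The highest library was 46.0 times the lowest, and each label held both high and low libraries.

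Between the labels *Nppa* had a log2 fold change (labelled KO over labelled WT) of -0.81 ± 1.31 (SE; edgeR adjusted p = 0.826). Leaving out library 3 turned the estimate to 0.73. Shown by *Vdac2* with library 3 apart, the low libraries 1, 5, 7 and 9 held 157 to 1523 CPM of *Nppa* and the high libraries 2, 4, 6 and 8 held 72.8 to 104 CPM. The sets did not overlap. Separation within each lane follows from separation of the whole sets and is no further result. The nearest values of *Nppa* were 157 CPM in library 5 and 104 CPM in library 6. Of all tested genes, 7.16% were higher with low *Vdac2* without overlap.

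*Nppb* (ENSMUSG00000029019, chr4:147985788-147987205) encodes B-type natriuretic peptide and lies 13.5 kb from *Nppa* on the same strand. It gave 416, 138, 1609, 216 and 209 CPM in the order of the libraries labelled WT, and 116, 173, 123 and 482 CPM in the order of the libraries labelled KO. Libraries 3, 9 and 1 were highest, as for *Nppa*. The log2 fold change between the labels was -1.21 ± 0.80 (SE; edgeR adjusted p = 0.679), and -0.14 without library 3.
The libraries with low *Vdac2* ran from 173 to 482 CPM of *Nppb* and those with high *Vdac2* from 116 to 216 CPM. The sets overlapped through library 4 (216 CPM), which was above libraries 5 and 7. Per kilobase of exon, *Nppb* made up 26.0% to 34.7% of the 2 natriuretic peptide transcripts in libraries 1, 3, 7 and 9, where *Nppa* was highest, and 55.2% to 74.9% in the others.

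The antisense gene *Gm13054* runs over 53.4% of the *Nppa* exon sequence on the opposite strand and had 3 to 29 counts, against 2018 to 124101 for *Nppa*. Other genes of natriuretic peptide handling were examined as a list. Of 14 genes for processing, receptors and cGMP signalling, 12 were tested and 0 were called between the labels, with 6 estimates higher and 6 lower in labelled KO and a median log2 fold change of -0.00, against -0.02 over all genes tested. The lowest p-values were those of *Prkg2* (-0.89 ± 0.51, SE), *Ide* (0.22 ± 0.16) and *Pde5a* (-0.11 ± 0.10), with edgeR adjusted p = 0.679 for the lowest. *Prkg2* was at -0.34 ± 0.37 (SE) without library 3. *Mme*, whose product neprilysin degrades natriuretic peptides, was the 1 gene of the list whose *Vdac2* sets did not overlap, at 6.07 to 14.2 CPM with low and 14.7 to 20.8 CPM with high *Vdac2*. Of all tested genes, 7.16% were higher and 4.93% lower with low *Vdac2* without overlap. Among the neighbours of the 2 peptide genes on chromosome 4, 0 were called. *Agtrap*, *Mfn2* and *Miip* had the lowest p-values of the 8 tested, with log2 fold changes of 0.12, 0.28 and 0.09 (0.06, 0.09 and 0.10 without library 3), and *Fbxo44* was the 1 whose *Vdac2* sets did not overlap, at a ratio of 1.03 between the nearest values.

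**Figure D1:**
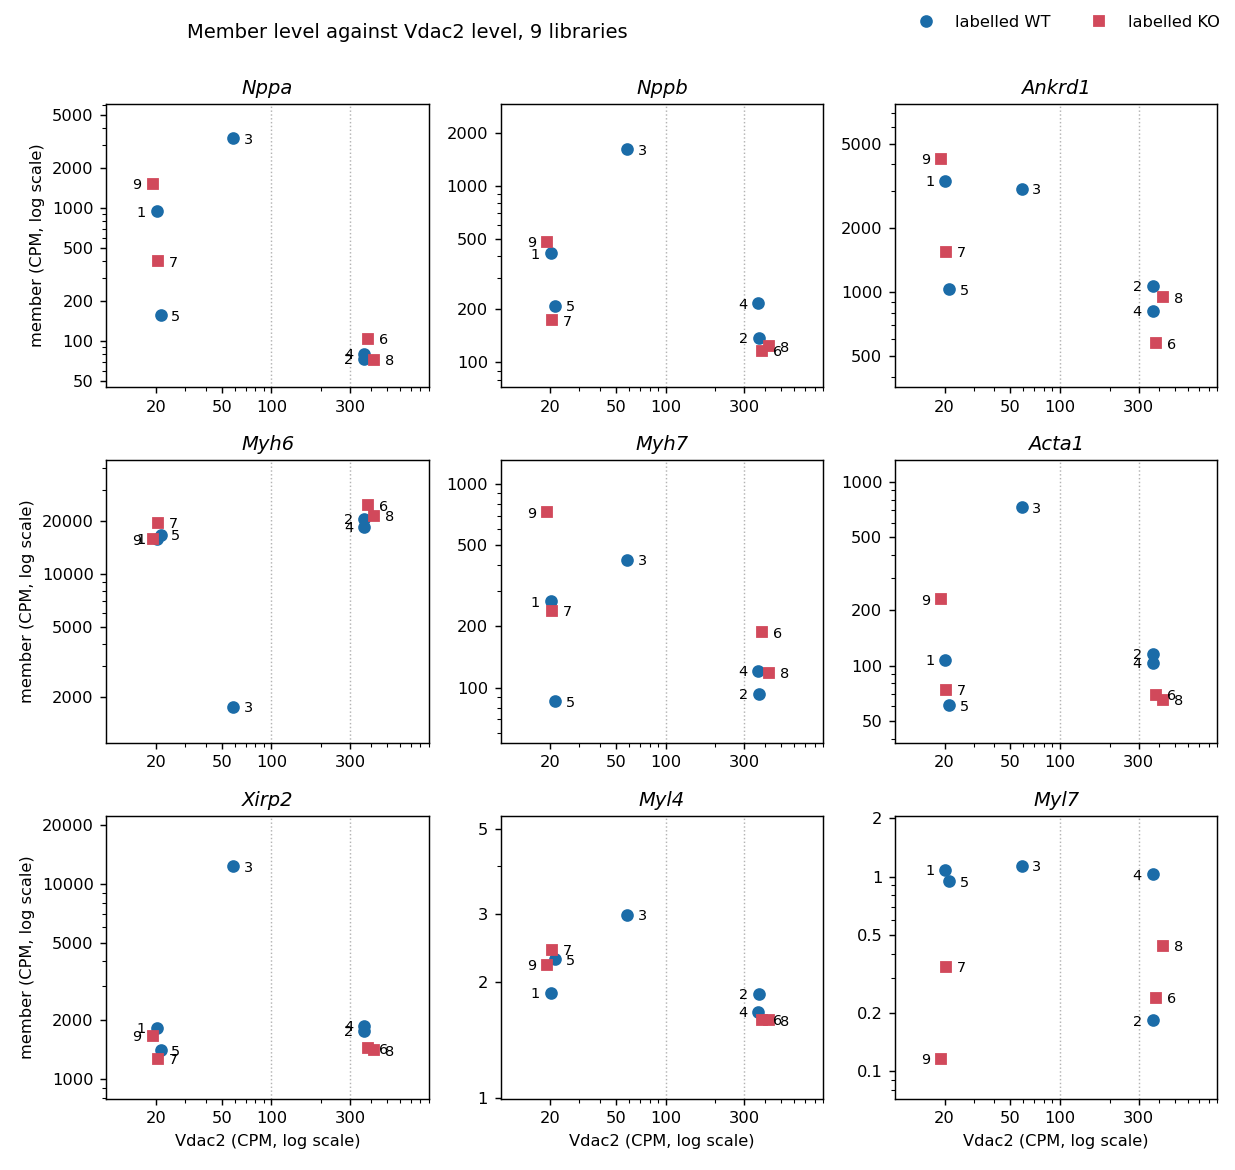
Level of each member (CPM, log scale) against the level of Vdac2 (CPM, log scale) in 9 libraries; circles are labelled WT, squares are labelled KO, numbers are library numbers and dotted lines mark 100 and 300 CPM. Nppa libraries at low Vdac2 (157 to 1523 CPM) lie above those at high Vdac2 (72.8 to 104 CPM), those of Myl4 do so by a small margin (1.87 against 1.86 CPM at the nearest), and library 3 is at the edge of the range for most members.

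The stretch-responsive genes gave 2 different patterns. *Ankrd1* (ENSMUSG00000024803, chr19:36111961-36120099) encodes the cardiac ankyrin repeat protein, which binds titin in the I-band and also enters the nucleus. It gave 3337, 1075, 3069, 820 and 1033 CPM in the order of the libraries labelled WT, and 574, 1546, 945 and 4246 CPM in the order of the libraries labelled KO. Libraries 9, 1, 3 and 7 were highest, the same 4 libraries as for *Nppa*. Between the labels the log2 fold change was -0.03 ± 0.65 (SE; edgeR adjusted p = 0.988). The libraries with low *Vdac2* held 1033 to 4246 CPM and those with high *Vdac2* 574 to 1075 CPM, and only libraries 5 and 2 crossed. With CPM taken from plain library totals the 2 sets did not overlap, where 11.3% of all tested genes were higher with low *Vdac2* without overlap.

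*Xirp2* (ENSMUSG00000027022, chr2:67446002-67526614) encodes a Xin-repeat protein that binds actin filaments at the intercalated disc. It gave 1831, 1769, 12253, 1879 and 1411 CPM in the order of the libraries labelled WT, and 1440, 1273, 1405 and 1672 CPM in the order of the libraries labelled KO. Library 3 was 6.52 times the highest of the others, and the other 8 libraries lay within a narrow band. The log2 fold change between the labels was -1.40 ± 0.69 (SE; edgeR adjusted p = 0.679), and -0.26 without library 3. An exact two-sided permutation test of mean log2(CPM + 0.5) gave p = 0.0476 for *Xirp2* with all libraries, 1 of 9 such tests. Leaving out each library in turn gave an exact permutation p of 0.0286 to 0.107, with 0.0857 without library 3, and it stayed under 0.05 only without library 5. Low-*Vdac2* libraries held 1273 to 1831 CPM and high-*Vdac2* libraries 1405 to 1879 CPM, so the sets overlapped along most of their length.

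Partners of these proteins at the Z-disc and intercalated disc were examined as a list of 22 genes, of which 21 were tested. Between the labels 0 were called, 11 estimates were higher and 10 lower in labelled KO, and the median log2 fold change was 0.05. Without library 3, an alternative chosen after seeing the data, 1 was called, *Tcap* (0.58 ± 0.10, SE; edgeR adjusted p = 0.0380). In that fit 62 of all 16251 tested genes were called. Over all 9 libraries *Ankrd23*, a relative of *Ankrd1*, had the lowest p (-0.91 ± 0.27, SE; edgeR adjusted p = 0.679) and was at 20.4 to 41.7 CPM in the libraries labelled WT and 9.02 to 17.2 CPM in those labelled KO. *Flnc* and *Synpo2l* followed, and both were highest in library 3, as *Xirp2* was. *Flnc*, an actin cross-linker of the Z-disc, was at 2309 CPM in library 3 and 332 to 521 CPM in the other libraries. *Synpo2l* was at 269.7 CPM in library 3 and 29.6 to 49.5 CPM in the others. *Actn2*, *Nrap*, *Ldb3* and *Myom1* were the 4 genes of the list whose low-*Vdac2* libraries lay below the high ones without overlap, 4 of 21 tested against 4.93% of all tested genes. For *Actn2* the ranges were 921 to 1023 CPM and 1226 to 1347 CPM.

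The myosin heavy chains form the classical pair of the fetal programme in the mouse. *Myh6* (ENSMUSG00000040752, chr14:54941921-54966927) encodes the fast α-chain of the adult mouse ventricle and *Myh7* (ENSMUSG00000053093, chr14:54970684-54994626) the slow β-chain of the fetal one. They lie 3.8 kb apart on the minus strand, and *Vdac2* is 33.1 Mb away on the same chromosome. *Myh6* gave 15840, 20648, 1747, 18615 and 16733 CPM in the order of the libraries labelled WT, and 24713, 19601, 21445 and 15806 CPM in the order of the libraries labelled KO. Library 3 was lowest by far, and library 6 highest. The log2 fold change was 0.47 ± 0.56 (SE; edgeR adjusted p = 0.768), and 0.18 without library 3. Low-*Vdac2* libraries ran from 15806 to 19601 CPM and high-*Vdac2* libraries from 18615 to 24713 CPM. The sets overlapped, since library 7 (19601 CPM) was above library 4 (18615 CPM).

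*Myh7* gave 266, 93.8, 426, 121 and 86.0 CPM in the order of the libraries labelled WT, and 187, 239, 118 and 725 CPM in the order of the libraries labelled KO. Library 9 was highest and library 5 lowest, although both had low *Vdac2*. The log2 fold change between the labels was 0.68 ± 0.64 (SE; edgeR adjusted p = 0.723), and it turned to -0.13 without library 9. The low-*Vdac2* range of 86.0 to 725 CPM enclosed the high-*Vdac2* range of 93.8 to 187 CPM. Without library 5, left out after its value was seen, the 2 sets did not overlap. In that setting 8.99% of all tested genes were higher with low *Vdac2* without overlap.

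As a share of both chains per kilobase of exon, which does not depend on library scaling, *Myh7* made up 1.30%, 0.353%, 16.0%, 0.505% and 0.400% in libraries 1 to 5 and 0.589%, 0.943%, 0.429% and 3.46% in libraries 6 to 9. Its mean was 3.71% ± 6.88 (SD, n = 5) in labelled WT and 1.35% ± 1.42 (SD, n = 4) in labelled KO, a difference of -2.36 percentage points (exact two-sided permutation p = 0.857; the smallest p this design allows is 0.0159). The difference turned to 0.716 percentage points without library 3. *Myh6* remained the major chain in every library, and both *Myh6* and *Myh7* contribute to the share of library 3, since *Myh6* was low and *Myh7* high there. Of the 50-base stretches of *Myh7* exons 15.6% also occur in *Myh6*, and how reads with several alignments were counted is not given in the sources used here, so low *Myh7* values may hold some *Myh6* reads or lack some of their own.

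The myosin genes carry microRNAs in their introns, which are shown because the 2 members share a seed. The mature sequences are from RefSeq (GRCm38.p6), with bases 2 to 8 in capitals.
miR-208a-3p (chr14:54949072-54949093, minus strand): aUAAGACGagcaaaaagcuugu
miR-208b-3p (chr14:54975710-54975731, minus strand): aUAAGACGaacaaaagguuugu

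The seed UAAGACG was the same in miR-208a-3p, from *Myh6*, and miR-208b-3p, from *Myh7*. The libraries were made from total RNA and do not measure mature microRNAs. Reads on the *Mir208a* hairpin numbered 2 in library 3, which was also lowest for *Myh6*, and 18 to 50 in the others. *Mir208b* had 0 counts in all 9 libraries, which allows up to 0.0693 to 0.114 CPM at 3 counts. *Mhrt*, an RNA transcribed from the opposite strand of the *Myh7* locus and described as an antagonist of cardiac remodelling, was at 2.35 CPM in library 3 and 23.6 to 37.9 CPM in the others. Its log2 fold change between the labels was 0.51 ± 0.54 (SE; edgeR adjusted p = 0.748), and 0.21 ± 0.13 (SE) without library 3. Of 7 neighbours of the myosin pair, 5 were tested and 0 called, and *Thtpa*, *Efs* and *Ngdn* had the lowest p-values with log2 fold changes of 0.17, -0.27 and 0.09 (0.07, -0.01 and 0.12 without library 3).

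*Acta1* (ENSMUSG00000031972, chr8:123891769-123894751) encodes skeletal α-actin, the partner of cardiac α-actin (*Actc1*) in fetal and stressed myocytes. It gave 107, 116, 729, 103 and 60.8 CPM in the order of the libraries labelled WT, and 69.1, 74.1, 65.1 and 230.2 CPM in the order of the libraries labelled KO. Libraries 3 and 9 stood above the rest. The log2 fold change was -1.03 ± 0.79 (SE; edgeR adjusted p = 0.695), and 0.17 without library 3. Low-*Vdac2* libraries (60.8 to 230.2 CPM) and high-*Vdac2* libraries (65.1 to 116 CPM) overlapped.
*Acta1* was 12.5% of *Acta1* and *Actc1* together per kilobase of exon in library 3, 2.74% in library 9 and 0.756% to 1.84% in the others. *Actc1* itself was at 5371 CPM in library 3 and 6050 to 9554 CPM elsewhere. Skeletal muscle also expresses *Acta1*. Of its 12 markers 6 were tested, and the 12 summed to 3.36 to 8.79 CPM. Of the 6 tested, 3 were higher with low *Vdac2* without overlap, where 7.16% of all tested genes were. *Myh2* and *Myh4*, named after their values were seen, were at or below 0.380 CPM in all libraries. The part of skeletal muscle in the *Acta1* levels was not tested.

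**Figure D2:**
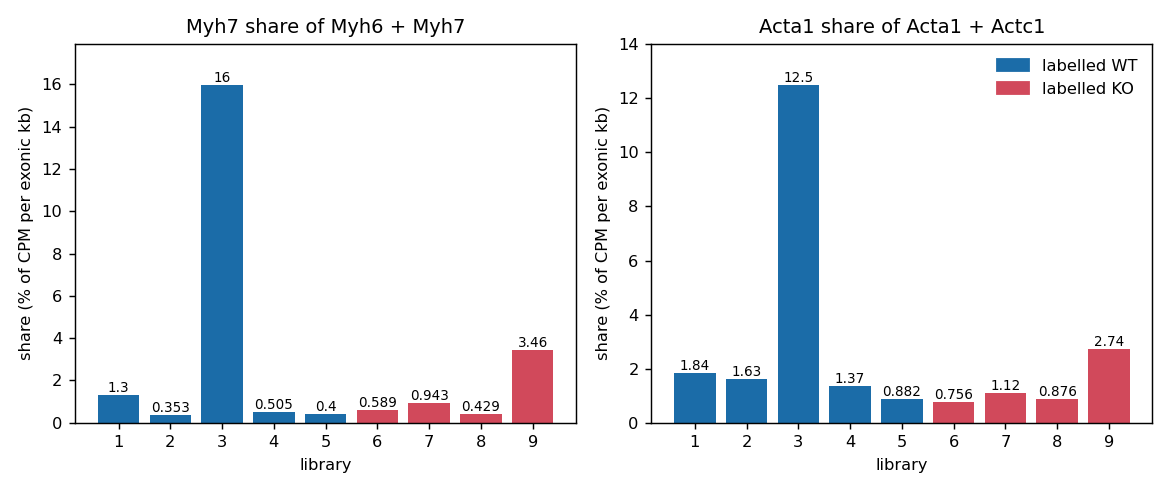
Share of Myh7 in Myh6 plus Myh7 (left) and of Acta1 in Acta1 plus Actc1 (right), as a percentage of CPM per kilobase of exon, in each of 9 libraries; blue bars are labelled WT and red bars labelled KO. Library 3 holds the highest share of both (16.0% and 12.5%) and library 9 the next (3.46% and 2.74%).

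The atrial light chains were at the bottom of the measurable range. *Myl4* (ENSMUSG00000061086, chr11:104550663-104595753) encodes the atrial and embryonic essential light chain. It gave 1.87, 1.86, 2.99, 1.67 and 2.29 CPM in the order of the libraries labelled WT, and 1.59, 2.43, 1.59 and 2.22 CPM in the order of the libraries labelled KO, from 44 to 111 counts. The whole span was narrow, and the log2 fold change between the labels was -0.13 ± 0.23 (SE; edgeR adjusted p = 0.841). Low-*Vdac2* libraries lay above high-*Vdac2* libraries without overlap, but the nearest values were 1.87 CPM in library 1 (57 counts) and 1.86 CPM in library 2 (51 counts). The sets overlapped once library 3 was left out of the normalization.
The ventricular partner of *Myl4*, *Myl3*, was at 638 CPM in library 3 and 2470 to 3789 CPM in the others, and its low-*Vdac2* libraries lay below the others without overlap (nearest ratio 1.10).

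*Myl7* (ENSMUSG00000020469, chr11:5896637-5898782) encodes the atrial regulatory light chain. It gave 1.08, 0.183, 1.13, 1.03 and 0.946 CPM in the order of the libraries labelled WT, and 0.239, 0.343, 0.441 and 0.115 CPM in the order of the libraries labelled KO, from 5 to 42 counts. All libraries labelled WT other than library 2 were above all those labelled KO. The log2 fold change between the labels was -1.63 ± 0.53 (SE; edgeR adjusted p = 0.679). It was the 1 member with an unadjusted p under 0.05, and the estimate stayed between -1.91 and -1.36 when each library was left out. The exact two-sided permutation p was 0.0635. Its range at low *Vdac2* (0.115 to 1.08 CPM) enclosed that at high *Vdac2* (0.183 to 1.03 CPM). The ventricular partner *Myl2* was at 1984 CPM in library 3 and 8597 to 11375 CPM elsewhere, so *Myl7* was at most 0.188% of the pair per kilobase.

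Markers of the epicardium and mesothelium, the outer layer of the heart, moved with *Myl7*. Summed over 6 markers they were at 34.2, 10.3, 31.4, 26.7 and 25.9 CPM in libraries 1 to 5 and 8.88, 6.56, 14.8 and 6.69 CPM in libraries 6 to 9. All 6 estimates were lower in labelled KO, with a median log2 fold change of -1.88. Of the 6, 5 had an unadjusted p under 0.05, where 6.11% of all tested genes did, but 0 were called (lowest edgeR adjusted p = 0.530, *Lrrn4*). *Krt19* and *Upk3b*, both of this list, and *Zdbf2* were the genes most like *Myl7* (Pearson r of log2(CPM + 0.5) 0.972, 0.961 and 0.953 over 8 libraries without library 3, and 0.932, 0.928 and 0.934 with it). The part of this tissue in the *Myl7* result was not tested, and in bulk tissue fewer cells of a type and less RNA per cell cannot be told apart. Of 9 atrial markers 6 were tested and 0 called, with 2 estimates higher and 4 lower in labelled KO. The 9 summed to 36.7 to 54.7 CPM, of which *Sln* and *Bmp10* gave at most 0.0588 and 0.214 CPM. The part of atrial tissue in the *Myl7* levels was not tested.

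**Figure D3:**
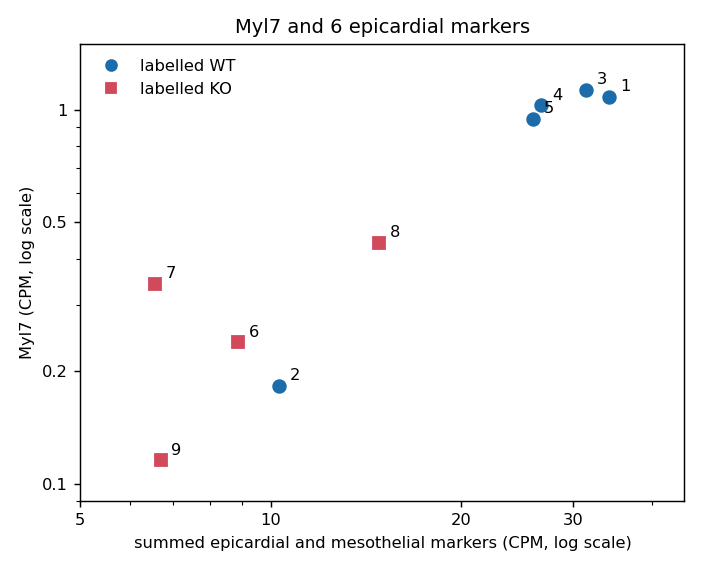
Myl7 (CPM, log scale) against the sum of 6 epicardial and mesothelial markers (CPM, log scale) in 9 libraries; circles are labelled WT, squares labelled KO, numbers are library numbers. Library 2 (0.183 CPM of Myl7, 10.3 CPM of markers) lies with the libraries labelled KO in both measures.

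Between the labels, 0 of the 9 members were called at an adjusted p under 0.05, where the edgeR test called 9 of 16322 genes (0.0551%), 5 of which were *Xist*, *Ddx3y*, *Eif2s3y*, *Kdm5d* and *Uty*. At an unadjusted p under 0.05, 1 of the 9 members passed, where 6.11% of all genes did. DESeq2, edgeR with other scalings or filters, and limma with library weights also called 0 members. DESeq2 gave an adjusted p for 7 of the 9, and with at least 10 counts in every library *Myl7* was not tested. With all libraries, 7 members had estimates below 0 (*Nppa*, *Nppb*, *Acta1*, *Ankrd1*, *Xirp2*, *Myl4* and *Myl7*), and of these *Nppa*, *Acta1*, *Ankrd1* and *Myl4* changed sign without library 3. A p above the threshold does not show that the levels were equal.

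**Figure D4:**
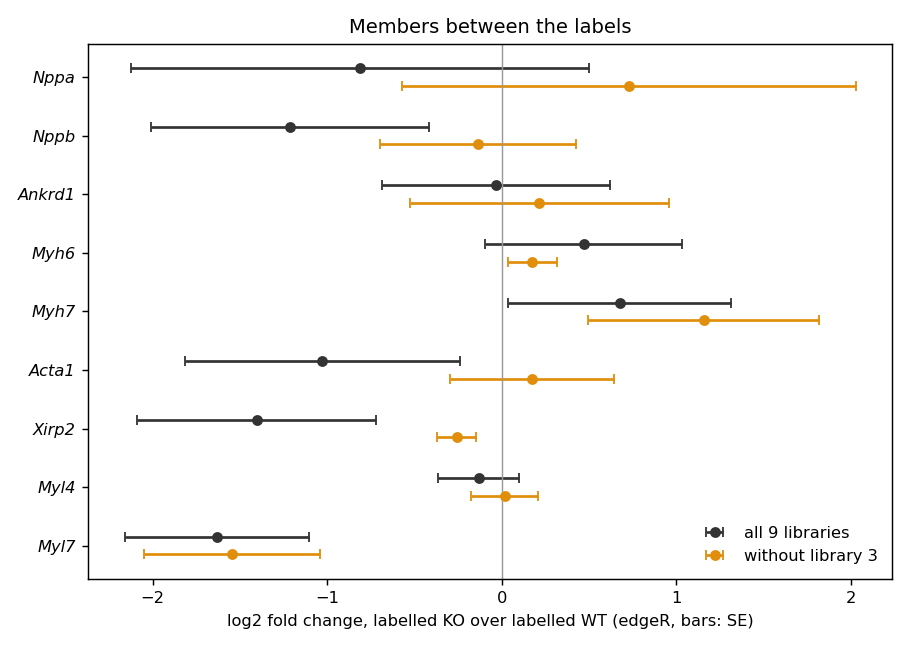
Log2 fold change of each member, labelled KO over labelled WT, from edgeR; points are estimates and bars are 1 SE, in black with all 9 libraries and in orange without library 3. Nppa, Ankrd1, Acta1 and Myl4 cross 0 when library 3 is left out, Xirp2 moves from -1.40 to -0.26, and Myl7 stays near its value.

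Shown by *Vdac2*, 2 of the 9 members (*Nppa* and *Myl4*) were higher in the libraries with low *Vdac2* without overlap, where 7.16% of all tested genes were, and 0 were lower without overlap, where 4.93% were. With plain library totals the shares were 11.3% and 2.66% of all genes, and *Ankrd1* joined the first. The rule that sorted the libraries uses this contrast, so the counts are given as a description. The sets overlapped for *Nppb*, *Myh6*, *Myh7*, *Acta1*, *Ankrd1*, *Xirp2* and *Myl7*. Library 5, with *Vdac2* at 21.3 CPM, was the lowest of its set for *Nppa*, *Myh7*, *Acta1* and *Ankrd1*. Libraries 1 and 9, of different labels, held the highest *Nppa*, *Nppb*, *Ankrd1* and *Myh7* of the set. The spread of *Nppa* was wide within the low-*Vdac2* set and narrow within the other.

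Of 10 lists of cell type markers, 4 had summed levels that did not overlap between these sets, and the other 6 overlapped. How often such sums separate was not computed. Taken singly, 4 of 8 fibroblast, 2 of 6 macrophage and 3 of 6 tested skeletal muscle markers were higher with low *Vdac2* without overlap. Of all tested genes 7.16% were. Only 1 of 9 ventricular myocyte markers was lower without overlap, where 4.93% of all tested genes were. Fibroblast markers (8 genes) summed to 1556 to 1587 CPM in the libraries with low *Vdac2* and 1058 to 1351 CPM in those with high *Vdac2*. Macrophage markers (6 genes) summed to 338 to 501 CPM and 229 to 329 CPM. The 9 ventricular myocyte markers, of which *Myh6* is the most abundant, summed to 44928 to 51649 CPM and 54001 to 63781 CPM. Skeletal muscle markers (12 genes) summed to 4.60 to 8.79 CPM and 3.36 to 4.34 CPM, near the bottom of the range. The part of cell composition in the levels of the members was not tested.

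Library 3 was unlike all others. It was highest for 6 members (*Nppa*, *Nppb*, *Acta1*, *Xirp2*, *Myl4* and *Myl7*) and lowest for *Myh6*, where 37.7% of all tested genes were highest and 37.4% lowest in it. *Nppa* in library 3 was 2.20 times the highest other library. The adult ventricular genes were uniformly low there. All 19 genes of the adult ventricular list, the partners of the members among them, had their lowest value in library 3, and their summed level was 25324 CPM against 71171 to 94525 CPM elsewhere. Summed fibroblast markers reached 5437 CPM and summed macrophage markers 975 CPM, the highest of the series. All 6 macrophage markers were highest in library 3, but of the 8 fibroblast markers 5 were highest and 2 lowest there. Limma gave library 3 a quality weight of 0.0482, where the other libraries had 0.541 to 2.16. The study left out a WT library for poor RNA quality without naming it in the text used here, and all 9 libraries were kept.

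Over all libraries the estimates of the same 19 adult genes were higher in labelled KO (median log2 fold change 0.33), with 0 called. Without library 3, an alternative chosen after seeing the data, 16 of the 19 were higher and 3 lower, with a median of 0.15 and 0 called. With all 9 libraries *Mybpc3* (0.54 ± 0.28, SE), *Tpm1* (0.45 ± 0.24) and *Tnnt2* (0.46 ± 0.30) had the lowest p-values (edgeR adjusted p = 0.679 for each), and without library 3 their estimates were 0.36, 0.31 and 0.25. *Atp2a2*, the calcium pump of the sarcoplasmic reticulum, was at 8938 to 10818 CPM in the low-*Vdac2* and 12413 to 13767 CPM in the high-*Vdac2* libraries without overlap, as were *Myl3*, *Mb* and *Cox7a1* with smaller gaps; these are 4 of 19 tested, against 4.93% of all tested genes.

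Regulators of the programme were examined as a list of 36 transcription factors, cofactors and their immediate targets. Of 35 tested, 0 were called between the labels and 2 had an unadjusted edgeR p under 0.05, where 6.11% of all tested genes did. The median log2 fold change was -0.06. Without library 3 it was 0.01, and 4 of the 35 had an unadjusted edgeR p under 0.05, where 1912 of 16251 genes did. *Tead1*, whose product binds the MCAT element, had a log2 fold change of -0.54 ± 0.21 (SE, edgeR adjusted p = 0.679). It was at 139 to 189 CPM in labelled WT and 65.6 to 136 CPM in labelled KO. A link between *Tead1* and the members was not tested. *Hdac5*, a repressor of MEF2, had the next lowest p of the list, at 0.39 ± 0.17 (SE). *Myc* (-1.57 ± 0.78, SE) and *Ccn2* were the 2 genes of the list that were higher with low *Vdac2* without overlap, against 7.16% of all tested genes. Without library 3, which had the highest *Myc*, its estimate was -0.46 ± 0.40 (SE). *Ccn2*, which encodes connective tissue growth factor, was at 61.2 to 232 CPM in the low-*Vdac2* libraries, 36.5 to 50.9 CPM in the high-*Vdac2* libraries and 1142 CPM in library 3. *Hdac9* was lower without overlap (35.2 to 48.0 and 52.7 to 55.1 CPM), 1 of 35 tested against 4.93% of all tested genes.

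*Ccn2* was also among the genes whose levels were most like those of *Nppa* over the 8 libraries without library 3 (r = 0.988), beside *Aqp4* (0.989) and *Hnrnpc* (0.988). With library 3, r was 0.957 for *Ccn2*, 0.970 for *Hnrnpc* and -0.151 for *Aqp4*, which was at 1.89 CPM there. For *Nppb* the nearest genes were *Fam45a*, *Atp6v0e* and *Arhgef6* (r 0.976 to 0.995), for *Ankrd1* *Lmo2*, *Hspa4l* and *Rnf141* (0.975 to 0.977), and for *Myh6* *Gm7889*, *Tnks1bp1* and *Ythdc1* (0.982 to 0.994). For *Myh7* they were *9330158H04Rik*, *Gpr182* and *Ptcd1* (0.964 to 0.977), for *Acta1* *Dpm3*, *Rab15* and *Thap1* (0.942 to 0.970), for *Xirp2* *Pfn4*, *Memo1* and *Clic5* (0.905 to 0.940), and for *Myl4* *Lrrc17*, *Mpp1* and *Pld4* (0.954 to 0.960). Adding library 3 turned the sign of r for *Arhgef6* (-0.040), *Tnks1bp1* (-0.436), *Ptcd1* (-0.101) and *Pfn4* (-0.887), lowered it to 0.096 for *9330158H04Rik* and 0.675 for *Gpr182*, and left it between 0.733 and 0.989 for the other genes of these 7 members. Each is the best of 13729 genes over 8 points that share library scaling, and no test was made.

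Other fetal or embryonic isoforms were examined as a list of 20. Of these genes 17 were tested, 0 were called between the labels, and 6 estimates were higher and 11 lower in labelled KO (median log2 fold change -0.13). Without library 3 the median turned to 0.06. With all 9 libraries *H19*, *Tnnt1* and *Enah* had the lowest p-values. *H19*, an imprinted fetal RNA, was at 19.7 to 40.8 CPM in labelled WT and 18.3 to 23.2 CPM in labelled KO (-0.57 ± 0.19, SE; edgeR adjusted p = 0.679). *Enah*, an actin regulator of the intercalated disc, was at 458 CPM in library 3 and 103 to 140 CPM in the others. *Uchl1* was the 1 gene of the list higher with low *Vdac2* without overlap, at 7.35 to 14.2 CPM and 3.27 to 4.38 CPM, 1 of 17 tested against 7.16% of all tested genes.

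Per kilobase of exon, the median levels over 9 libraries placed *Myh6* first at 2768 CPM per kb. *Ankrd1* (372), *Nppb* (268), *Nppa* (181), *Xirp2* (140) and *Acta1* (67.3 CPM per kb) followed, each with a range over libraries that overlapped that of its neighbour. *Myh7* was at 21.8 CPM per kb, and its range of 9.98 to 84.2 overlapped that of *Acta1*. *Myl7* (0.748) and *Myl4* (0.403 CPM per kb) overlapped each other and lay below all values of *Myh7*.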

How the data were processed

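RNA of left ventricle was extracted, depleted of ribosomal RNA (Ribo-Zero Gold), made into stranded libraries and sequenced by the authors. Per the labels, STAR 2.7.2c, featureCounts 1.6.3 and DESeq2 were used with GRCm38. The authors deposited raw counts for each Ensembl gene, not normalized. The annotation release, strand setting and treatment of multiply aligned reads are not given in the sources used here. Symbols were found for 52403 of 52636 identifiers, and coordinates and exon lengths are from GENCODE M21.

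From the counts, edgeR 4.0.16 (R 4.3.3; filterByExpr, TMM, robust quasi-likelihood test, Benjamini-Hochberg adjustment over all genes tested) compared 4 libraries labelled KO with 5 labelled WT. Levels are TMM-scaled CPM. Library depth was 27345052 to 44673988 counts, and 3 counts, taken as the floor, equal 0.0693 to 0.114 CPM, which covers counting error only. The script was tested on simulated data. Members, lists and tests were chosen with earlier results of these data known. Genes named are the members and, from each list, the 3 with the lowest p and up to 3 with the largest gap between libraries sorted by *Vdac2*, plus partner isoforms. Exceptions named after their values were seen are the fourth gene without overlap in 2 lists (*Myom1* and *Mb*), *Tcap*, *Sln*, *Bmp10*, the muscle markers *Myh2* and *Myh4*, and the sex genes. Libraries sorted by *Vdac2* (under 100, over 300 CPM) were described only, since each set mixes both labels. Likeness was computed on log2(CPM + 0.5) of genes with a mean of at least 1 CPM. Alternatives were RLE and upper-quartile scaling, DESeq2 1.42.0, no low-count filter, 10 counts in every library, mitochondrial genes left out, limma 3.58.1 library weights, a pseudocount of 0.1, and leaving out each library. Promoter and microRNA sequences are from RefSeq (GRCm38.p6). *Kiaa2013*, on 1 list, was not matched by symbol.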

Additional observations from a re-analysis of the deposited data

Results flagged for a closer look

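In groups of 4 or 5 libraries of 1 label, 24 sets of values were examined for a single library far from the rest, and 11 were found. Chance flags about 1 in 20 groups. Library 3 stood apart among the libraries labelled WT for *Nppa* (3347 CPM), *Nppb* (1609 CPM), *Acta1* (729 CPM) and *Xirp2* (12253 CPM), which were high, and for *Myh6* (1747 CPM), which was low. It also stood apart for the *Myh7* share of both myosin heavy chains (16.0%) and the *Acta1* share of both actins (12.5%). Library 9 stood apart among the libraries labelled KO for *Nppb* (482 CPM), *Acta1* (230.2 CPM) and the *Myh7* share (3.46%). Library 2 was the single low value of *Myl7* among the libraries labelled WT (0.183 CPM, 5 counts), and its epicardial markers were also the lowest of that label (10.3 CPM).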

How the results depend on the processing

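The number of members called between the labels was 0 under every alternative run. With at least 10 counts in every library 8 members were tested, and *Myl7* was not. The number of all genes called was 9, and became 62 with DESeq2, 0 with at least 10 counts in every library (875 at an unadjusted p under 0.05), 79 with limma library weights and 5 to 62 when each library was left out, with 62 without library 3. Library 3 decided the sign of several estimates: without it the log2 fold changes were 0.73 for *Nppa*, 0.17 for *Acta1*, 0.22 for *Ankrd1* and 0.017 for *Myl4*. *Nppa* was also 0.0654 with library weights, and *Myh7* was -0.13 without library 9. *Ankrd1*, at -0.03, lay between -0.87 and 0.29 when each library was left out and was 0.0029 without a low-count filter. Over libraries left out, *Nppa* ran from -2.26 to 0.73, *Acta1* from -1.68 to 0.17, *Myh7* from -0.13 to 1.16 and *Myl4* from -0.25 to 0.02, and the *Myh7* share differed by -3.19 to 0.716 percentage points. The difference in mean log2(CPM + 0.5) ran from -1.10 to 0.59 for *Nppa*, from -0.73 to 0.23 for *Ankrd1* and from -0.19 to 0.0026 for *Myl4*. For *Xirp2* it was -0.82 with RLE scaling (exact permutation p = 0.0635) and -1.03 to -0.26 when each library was left out (exact permutation p = 0.0286 to 0.107, under 0.05 only without library 5). Members without overlap by *Vdac2* numbered 1 to 4 (higher) and 0 to 1 (lower) when each library was left out. Of all tested genes, 6.92% to 9.89% were then higher and 5.2% to 8.34% lower without overlap. Of the lists, without library 3 and chosen after seeing the data, the median log2 fold change of the fetal isoforms became 0.06 (9 higher, 8 lower) and of the transcription factors 0.01, and the Z-disc list had 1 called gene, *Tcap* (0.58 ± 0.10, SE; edgeR adjusted p = 0.0380), which encodes telethonin. The cause was not tested. No paired analysis was possible because the labels share no replicate numbers. *Myl7* rests on 5 to 42 counts a library, and DESeq2 gave no adjusted p for *Acta1* and *Xirp2*.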
